A study of Mus musculus with 32 samples.

Results

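The mitochondrial respiratory chain and ATP synthase were followed through the nuclear genes that encode them. Members were chosen by symbol: every gene whose symbol begins with Ndufa, Ndufb, Ndufc, Ndufs, Ndufv, Uqcr, Cox4, Cox5, Cox6, Cox7, Cox8 or Atp5, together with Sdha, Sdhb, Sdhc, Sdhd, Cyc1 and Cycs. The choice found 92 of the 22216 genes listed. By name, 38 belong to complex I, 4 are complex I assembly factors, 4 belong to complex II, 9 to complex III, 1 is the electron carrier cytochrome c, 19 belong to complex IV and 17 to the ATP synthase. Cox4nb, a part of a membrane protein complex of the endoplasmic reticulum, was matched by its symbol although it is no subunit of complex IV. Atp5s and Atp5sl carry the name of the synthase without being among its structural subunits.

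Poly(A)-selected RNA was sequenced from dendritic cells grown from bone marrow of C57BL/6 mice with GM-CSF and harvested on day 9. The dKO cells came from Lmp7-/-Mecl1-/- mice, which lack the immunoproteasome subunits encoded by Psmb8 and Psmb10, and the WT cells from wild-type mice. Each genotype was exposed to LPS, a bacterial cell wall component that activates these cells, at 1 µg/mL for 1, 2 or 6 h, or sampled at 0 h. Each of the 8 groups held 4 libraries, 32 in all. Nothing in the labels ties the replicates to separate mice or cultures, so a p-value here reflects variation among libraries and possibly only technical variation.

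Complexes I and II pass electrons from NADH and succinate to ubiquinone, complex III passes them on to cytochrome c, and complex IV passes them to oxygen. Complexes I, III and IV pump protons, and the ATP synthase uses the proton gradient to make ATP. Complex II is also an enzyme of the citric acid cycle. Dendritic cells and macrophages activated by LPS are known to turn towards glycolysis, and electron flow into complex I and out of complex II has been studied as a control point of their inflammatory output. The few subunits encoded by the mitochondrial genome were not analysed here.

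The targeted genes followed the genotype labels: Psmb8 lay between 2.67 and 7.42 RPKM in the 16 dKO libraries and between 150.3 and 312 RPKM in the 16 WT libraries. Psmb10 lay between 2.37 and 17.1 RPKM in dKO and between 41.6 and 131.2 RPKM in WT libraries. RPKM scales the reads of a gene by its length and by the depth of the library. Between 1.27 and 1.87 Gb of sequence per library was aligned to genes, and 9188 to 10701 genes reached 1 RPKM. The spike-in RNAs took 0.0943% to 0.127% of the bases aligned to genes and spike-ins in dKO and 0.133% to 0.328% in WT libraries. The genotypes did not overlap in this share. All 8 dendritic cell markers were found among the genes listed, whatever their level. Their summed RPKM at 6 h had a median of 10270 in dKO and 12328 in WT cells. The summed macrophage markers had a median of 6143 RPKM in dKO and 3073 RPKM in WT cells at 6 h, and of 18359 RPKM in dKO and 13800 RPKM in WT cells at 0 h. The 5 neutrophil markers found, of 6 listed, summed to 159 to 309 RPKM in dKO and 499 to 647 RPKM in WT libraries at 0 h and to 158 to 311 RPKM in dKO and 341 to 525 RPKM in WT libraries at 6 h, and the genotypes overlapped at no time. In WT cells their median was 533, 881, 858 and 450 RPKM at 0, 1, 2 and 6 h. The 3 eosinophil markers found, of 4 listed, had a median of 222 RPKM in dKO and 413 RPKM in WT cells at 0 h and of 385 RPKM in dKO and 634 RPKM in WT cells at 6 h. The part of these differences in the results below was not tested. Each sum rests mainly on its most abundant genes. Over all libraries the median was 7551 RPKM for Cd74 and 0.526 RPKM for Flt3 among the dendritic cell markers. It was 8760 RPKM for Lyz2 and 0.598 RPKM for Cd163 among the macrophage markers. For neutrophils it was 198 RPKM for S100a9 and 0.369 RPKM for Elane, and for eosinophils 404 RPKM for Prg2 and 0.491 RPKM for Ccr3. In bulk samples, fewer cells of a type and less RNA per cell cannot be told apart.

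Of the dKO libraries, 5 stood apart from the rest of their group. Their profiles were closest to WT cells of another time: replicate 2 at 0 h was nearest to 1 h, replicate 2 at 1 h to 2 h, replicate 2 at 2 h to 0 h, replicate 4 at 2 h to 6 h, and replicate 4 at 6 h to 2 h. Their correlation with WT cells of the labelled time lay between 0.823 and 0.946, against 0.972 to 0.98 in the other 11 dKO libraries. Labels were kept as given. The adjusted counts over all members, the 6 h sums of the complexes and the Ndufa4 differences are given with and without these libraries. Most other dKO results are given with them only. These include changes and p-values of single genes, medians and counts by complex, and the other gene lists.

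Most members were abundantly transcribed, and 85 of the 92 passed the filter of at least 1 RPKM in at least 4 libraries. A mean of 100 RPKM or more over all libraries was reached by 16 members. Cox4i1, the regulatory subunit 4 of cytochrome c oxidase, stood highest at a mean of 387 RPKM, followed by the catalytic beta subunit of the synthase, Atp5b, at 269 RPKM and Cox8a at 257 RPKM. In complex I the mean ran between 116 RPKM for Ndufa6 and 2.52 RPKM for Ndufab1, the mitochondrial acyl carrier protein, among the members tested. In complex III it ran between 217 RPKM for Uqcrh, the hinge protein, and 42.9 RPKM for Cyc1, cytochrome c1. The 4 genes of complex II lay close together, with 78.6 RPKM for Sdhd, 54.6 RPKM for Sdhc, 53.3 RPKM for Sdha and 49.2 RPKM for Sdhb.

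Isoforms of one subunit differed widely in level. Cox4i1 averaged 387 RPKM and its lung-enriched isoform Cox4i2 0.387 RPKM. The muscle isoforms Cox6a2 and Cox7a1 averaged 1.66 and 5.49 RPKM, against 186 RPKM for Cox6a1 and 68.2 RPKM for Cox7a2. Cox6b1 averaged 202 RPKM and the testis isoform Cox6b2 4.08 RPKM. Of the 3 genes that encode the same c subunit of the synthase rotor, Atp5g3 averaged 169 RPKM, Atp5g1 9.85 RPKM and Atp5g2 5.23 RPKM. Cox7b2, Cox8b and Cox8c were listed at 0 in all libraries, and Ndufa4l2 was likewise too low to be tested. Ndufs5 was not tested either, but its entry covers only chr4:123395405-123395429 in mm9, so its values are no measure of its transcript. Cycs was listed at 0.388 RPKM on average, and the genome holds many near-copies of it. How reads that match several places were counted is not given in the sources used here, so the low values of Cycs and of other members with processed copies are uncertain.

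The mean summed level of all members was lower at each LPS time than at 0 h in both genotypes. It was 6985 ± 826, 5715 ± 266, 5465 ± 1168 and 4573 ± 540 RPKM in dKO cells at 0, 1, 2 and 6 h (mean ± SD, n = 4 each). The WT sum was 7565 ± 170, 5774 ± 161, 5399 ± 285 and 4995 ± 171 RPKM at the same times. As a share of all RPKM of a library, the sum made up 1.14% at 6 h and 1.76% at 0 h in dKO cells, and 1.24% at 6 h and 1.92% at 0 h in WT cells. The wide spread in dKO cells came with the libraries that stand apart: at 0 h, replicate 2 held 5752 RPKM, against 7320 to 7519 RPKM in the other 3, and at 2 h replicate 2 held 7135 RPKM.

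**Figure D1:**
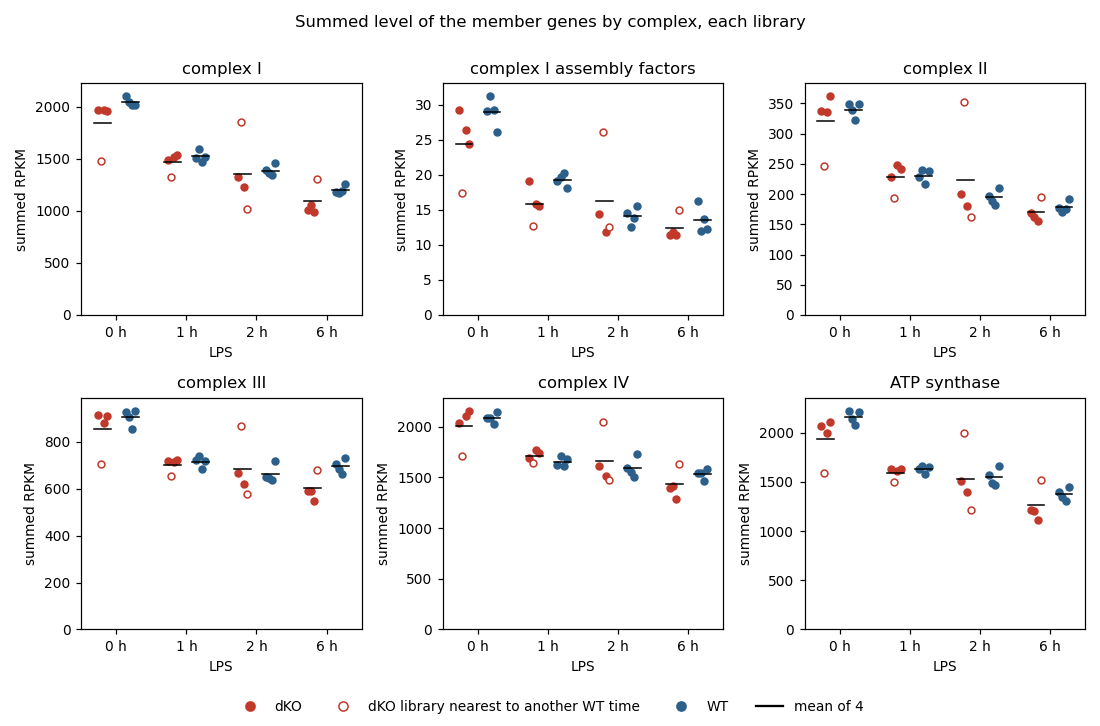
Summed RPKM of the members of each complex in every library, against hours of LPS, for dKO (left points) and WT (right points) cells. Points are libraries, bars are group means, and open points mark the 5 dKO libraries that stand apart. In both genotypes the mean of each complex was lower at 6 h than at 0 h, with complex I at 1091 RPKM in dKO and 1198 RPKM in WT cells at 6 h.

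The complexes kept different shares of their starting level at 6 h. Complex II was at 53.2% of its 0 h sum in dKO and at 52.7% in WT cells, and complex I at 59.1% in dKO and 58.6% in WT cells. The synthase was at 65.1% in dKO and 63.7% in WT cells. Complexes III and IV kept most: complex III was at 70.7% in dKO and 76.9% in WT cells, and complex IV at 71.6% in dKO and 73.5% in WT cells. Without the libraries that stand apart, the dKO shares were 46.9% for complex II, 51.8% for complex I, 57.2% for the synthase, 64.0% for complex III and 65.2% for complex IV. These shares describe sums, in which the abundant genes weigh most, and carry no test.

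Tested gene by gene with limma on log2(RPKM + 0.5), nearly all members were lower after 6 h of LPS. In dKO cells, 38, 73 and 80 of the 85 members tested were called lower after 1, 2 and 6 h than at 0 h, at an adjusted p below 0.05, and 0 were called higher. At an unadjusted p below 0.05, 50, 74 and 80 were lower and 0 higher, beside 52.3%, 57.5% and 61.5% of all genes lower. Of all 11154 genes tested in dKO cells, 44.1%, 53.8% and 60.2% were called lower and 5.82%, 9.17% and 14.7% higher at these times. In WT cells, 67 members were called lower at 1 h, 81 at 2 h and 79 at 6 h, and 1 was called higher, at 6 h. The share of all genes called in WT cells was 45.5% lower and 6.84% higher at 1 h, 68.5% lower and 11.2% higher at 2 h, and 60.9% lower and 14.9% higher at 6 h. The dKO count at 1 h was 4 without 0 h replicate 4 or without 1 h replicate 2, 6 without 0 h replicate 1, 10 without 0 h replicate 3, 66 without 0 h replicate 2, and 76 without all libraries that stand apart, where 67.8% of all genes were lower and 9.49% higher. At 2 h it was 37 without 2 h replicate 4 and 47 without 0 h replicate 1 or 2 h replicate 3. Without the libraries that stand apart it was 78 at 2 h, beside 72.3% of all genes lower and 13.8% higher, and 81 at 6 h, beside 68.5% lower and 18.8% higher.

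The median gene was lower too. At 6 h the median log2 change of the members was -0.74 in dKO and -0.79 in WT cells, and that of all genes was -0.62 in dKO and -0.65 in WT cells. RPKM are relative to the total of a library, so each library was also scaled by the median ratio of its genes to their mean profile, which brought the median of all genes to -0.05 in dKO and -0.03 in WT cells at 6 h. After scaling, the median member was at -0.10 in dKO and -0.13 in WT cells at 6 h, with 22 members lower and 6 higher in dKO cells and 18 lower and 15 higher in WT cells. The scaled shares of all genes were 33.8% lower and 31.7% higher in dKO cells, and 33.8% lower and 32.6% higher in WT cells. At 2 h the scaled median was 0.05 in dKO and 0.22 in WT cells, where 33 members were higher and 6 lower in WT cells, beside 30.7% and 31.1% of all genes. Scaled and without the libraries that stand apart, 4 members were lower and 25 higher in dKO cells at 1 h, beside 25.4% and 30.2% of all genes, 7 and 45 at 2 h, beside 35.1% and 35.9%, and 43 and 13 at 6 h, beside 40.9% and 38.6%. Values that follow are as deposited unless scaling is named, since the direction of many members depends on it.

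**Figure D2:**
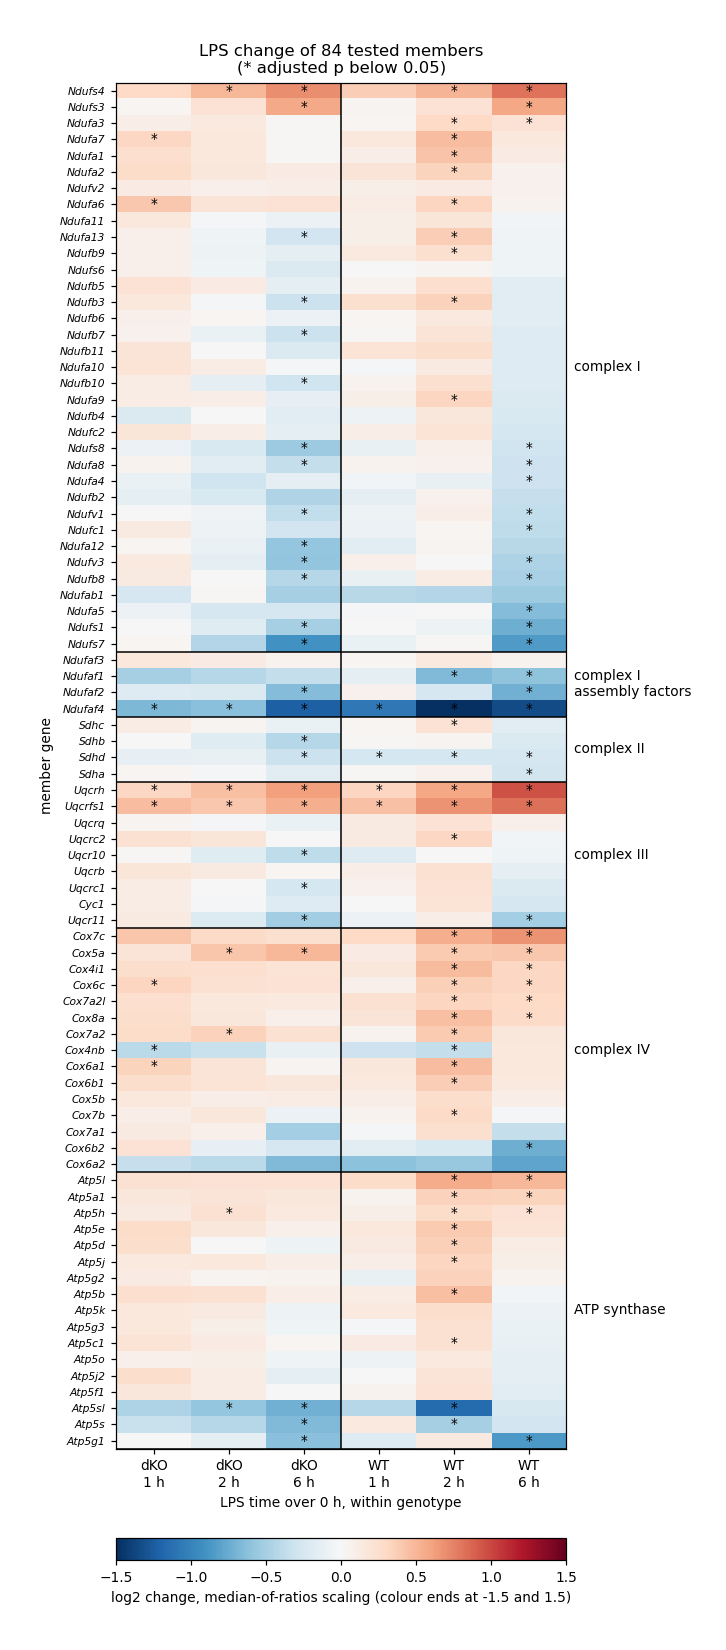
Log2 change of 84 of the 85 tested members at each LPS time over 0 h after median-of-ratios scaling, with dKO columns left of WT columns, members grouped by complex, blue for lower, red for higher and a star for an adjusted p below 0.05. At 6 h Ndufaf4 and Ndufs7 are lower, and Uqcrh, Uqcrfs1 and Ndufs4 higher, in both genotypes. Ndufaf4 passed the filter only through libraries at or near 0 h.

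Complex I, the NADH dehydrogenase, had 34 of 36 tested members called lower at 6 h as deposited in each genotype, beside 60.2% of all genes in dKO and 60.9% in WT cells. Its median log2 change at 6 h on the deposited scale was -0.82 in dKO and -0.88 in WT cells. After scaling it was -0.20 in dKO cells, with 12 of 36 members lower and 3 higher, and -0.19 in WT cells, with 10 lower and 4 higher, while 33.8% of all genes were lower in each genotype. Ndufs7, a subunit of the ubiquinone-reducing arm, was among the members that fell most. It stood at 13.6, 16.9, 15.6 and 30.9 RPKM in dKO cells at 6 h, against 57.1, 40.2, 64.8 and 57.9 RPKM at 0 h. The WT cells had 18.3, 16.9, 18.6 and 20.1 RPKM at 6 h, against 59.4, 53.3, 53.2 and 52.0 RPKM at 0 h. The times did not overlap in either genotype, and 6 h replicate 4, a library that stands apart, was the highest of the dKO libraries at 6 h. The log2 change was -1.54 ± 0.27 in dKO (SE, limma adjusted p = 2.13e-05) and -1.54 ± 0.27 in WT cells (SE, limma adjusted p = 1.51e-05), and -0.90 in dKO and -0.85 in WT cells after scaling.

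Ndufs1, the largest subunit of complex I, which carries iron-sulphur clusters, followed the same course. It was at 9.20, 9.30, 9.62 and 13.3 RPKM in dKO cells at 6 h, against 27.0, 18.2, 21.6 and 26.3 RPKM at 0 h. WT cells had 8.48, 9.06, 8.75 and 9.47 RPKM at 6 h, against 26.0, 23.9, 22.3 and 25.6 RPKM at 0 h, and neither genotype overlapped. It fell by 1.13 ± 0.17 on the log2 scale in dKO (SE, limma adjusted p = 7.40e-06) and by 1.40 ± 0.17 in WT cells (SE, limma adjusted p = 2.04e-07), and after scaling the changes were -0.50 in dKO and -0.73 in WT cells.

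Ndufs4, an accessory subunit at the NADH-oxidising arm, was not called at 6 h on the deposited scale. It had 19.7, 17.1, 21.0 and 16.2 RPKM in dKO cells at 6 h, against 16.6, 17.6, 16.8 and 19.2 RPKM at 0 h. In WT cells it had 21.6, 20.8, 20.4 and 22.0 RPKM at 6 h, against 20.5, 19.7, 18.8 and 17.5 RPKM at 0 h. The times overlapped in both genotypes, and neither deposited change was called, with 0.07 ± 0.12 in dKO (SE, limma adjusted p = 0.591) and 0.15 ± 0.12 in WT cells (SE, limma adjusted p = 0.258). Relative to the median gene it rose, by 0.70 in dKO and 0.82 in WT cells after scaling (limma adjusted p = 0.000157 in dKO and 2.11e-05 in WT). At 2 h in WT cells it was called lower as deposited, at -0.26 ± 0.12 (SE, limma adjusted p = 0.0459), and was at 0.51 after scaling. That call ended without WT 0 h replicate 1, 2 or 3, without WT 2 h replicate 2, 3 or 4, and with the replicate block. Ndufs3, a core subunit of the peripheral arm, was not called at 6 h as deposited either, with a log2 change of -0.07 in dKO and -0.10 in WT cells as deposited and 0.57 in dKO and 0.58 in WT cells after scaling.

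The complex I assembly factors showed the lowest median of any group, -1.07 in dKO and -1.28 in WT cells at 6 h as deposited, and -0.50 and -0.66 after scaling, in the same order. All 4, Ndufaf4 included, were called lower in WT cells as deposited and 3 of 4 after scaling. Of all genes, 60.9% were called lower as deposited and 33.8% after scaling. Ndufaf4, a factor of early complex I assembly, had 0.25, 0.347, 0.222 and 0.330 RPKM in dKO cells at 6 h, against 2.99, 0.564, 2.54 and 2.69 RPKM at 0 h. In WT cells it had 3.80, 2.56, 2.94 and 2.64 RPKM at 0 h, 0.658, 0.716, 0.863 and 0.667 RPKM at 1 h, 0.313, 0.195, 0.264 and 0.396 RPKM at 2 h, and 0.416, 0.392, 0.503 and 0.464 RPKM at 6 h. The low dKO value at 0 h belongs to replicate 2, which stands apart, and no LPS library of WT cells reached the lowest WT library of 0 h. At 6 h the log2 change was -1.64 in dKO and -1.87 in WT cells, given without a p-value. Ndufaf4 reached 1 RPKM in only 8 libraries. They were those of 0 h other than dKO replicate 2, and dKO 2 h replicate 2, which was nearest to 0 h. It thus passed the filter only through libraries at or near 0 h, where it is high, so its calls are no support for a fall. The counts and medians of the 4 assembly factors include Ndufaf4 and share this limit. The pseudocount of 0.5 RPKM understates the change of so low a gene.

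All 4 genes of succinate dehydrogenase, complex II, were called lower at 6 h on the deposited scale in both genotypes. Of all genes, 60.2% were called lower in dKO and 60.9% in WT cells. The median log2 change of the 4 genes was -0.88 in dKO and -0.92 in WT cells, against -0.62 and -0.65 for all genes, in the same order. Sdhd, a membrane anchor that lies, like Cox5a, within a long annotation entry of Cdkn2d, had 60.9, 56.7, 46.3 and 56.2 RPKM in dKO cells at 6 h, against 120, 73.4, 118 and 127 RPKM at 0 h. In WT cells Sdhd had 64.0, 59.6, 60.6 and 70.7 RPKM at 6 h, against 131, 123, 114 and 124 RPKM at 0 h. Neither genotype overlapped between the times, and the change was -0.96 ± 0.18 in dKO (SE, limma adjusted p = 4.00e-05) and -0.94 ± 0.18 in WT cells (SE, limma adjusted p = 3.82e-05). The flavoprotein Sdha, which oxidises succinate, changed by -0.80 in dKO and -0.96 in WT cells. After scaling, Sdhd and Sdhb were still called lower in dKO cells, and Sdhd and Sdha in WT cells, at -0.24 for the median of the 4 genes in each genotype. Of all genes, 33.8% were called lower after scaling in each genotype.

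Complex III, which hands electrons to cytochrome c, had a median log2 change of -0.74 in dKO and -0.75 in WT cells at 6 h, and of -0.10 in dKO and -0.06 in WT cells after scaling. Of its 9 genes, 7 were called lower and 1 higher in WT cells as deposited, beside 60.9% and 14.9% of all genes. After scaling, 1 was lower and 2 higher, beside 33.8% and 32.6% of all genes. Uqcrh, the hinge protein that helps cytochrome c bind, was the one member called higher on the deposited scale. It had 235, 226, 218 and 204 RPKM in dKO cells at 6 h, against 237, 216, 210 and 240 RPKM at 0 h. In WT cells it had 227, 219, 210 and 224 RPKM at 0 h, 204, 195, 192 and 195 RPKM at 1 h, 189, 185, 190 and 199 RPKM at 2 h, and 269, 262, 259 and 272 RPKM at 6 h. In WT cells every 6 h library was above every library of the other times, while in dKO cells 6 h and 0 h overlapped. The change at 6 h was -0.03 ± 0.07 in dKO (SE, limma adjusted p = 0.711) and 0.27 ± 0.07 in WT cells (SE, limma adjusted p = 0.00138), and after scaling 0.62 ± 0.11 in dKO (SE, limma adjusted p = 3.36e-05) and 0.96 ± 0.11 in WT cells (SE, limma adjusted p = 1.06e-07). Uqcrfs1, the Rieske iron-sulphur protein, was at a log2 change of -0.10 in dKO and 0.14 in WT cells as deposited, neither called, and at 0.55 in dKO and 0.82 in WT cells after scaling, both called.

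Complex IV, cytochrome c oxidase, fell least of the complexes by its median, -0.53 in dKO and -0.52 in WT cells at 6 h, and its scaled median was above 0, at 0.11 in dKO and 0.16 in WT cells. After scaling, 1 of 15 members was called higher and 0 lower in dKO cells, where it was Cox5a, and 6 were called higher and 1 lower in WT cells. Of all genes, 31.7% were higher and 33.8% lower in dKO cells, and 32.6% higher and 33.8% lower in WT cells. Cox4i1 had 330, 348, 311 and 382 RPKM in dKO cells at 6 h, against 480, 412, 468 and 501 RPKM at 0 h. In WT cells Cox4i1 had 343, 340, 331 and 343 RPKM at 6 h, against 443, 422, 437 and 467 RPKM at 0 h. These values were lower without overlap on the deposited scale, at -0.44 in dKO and -0.38 in WT cells, and 0.21 in dKO and 0.31 in WT cells after scaling, where only the WT change was called. Cox5a, which pairs with Cox4i1, was called in WT cells, at -0.28 ± 0.12 (SE, limma adjusted p = 0.0360), and not in dKO cells, at -0.15 ± 0.12 (SE, limma adjusted p = 0.262). Leaving out WT 0 h replicate 3 or 4, or WT 6 h replicate 1 or 3, ended that call.

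In the ATP synthase, all 17 genes were called lower in dKO cells and 16 in WT cells at 6 h as deposited, beside 60.2% of all genes in dKO and 60.9% in WT cells. Atp5g1, a low isoform of the rotor ring, had 4.05, 4.20, 4.88 and 8.47 RPKM in dKO cells at 6 h, against 15.3, 9.33, 12.6 and 15.3 RPKM at 0 h. In WT cells it had 4.64, 5.65, 5.19 and 5.85 RPKM at 6 h, against 17.9, 14.7, 16.3 and 16.0 RPKM at 0 h, and the times overlapped in neither genotype. It changed by -1.24 ± 0.23 in dKO (SE, limma adjusted p = 3.27e-05) and by -1.52 ± 0.23 in WT cells (SE, limma adjusted p = 1.83e-06). Atp5g3 changed by -0.71 in dKO and -0.79 in WT cells and Atp5g2 by -0.54 in dKO and -0.57 in WT cells. The difference between the isoforms was not tested. The median of the 17 genes was -0.65 in dKO and -0.78 in WT cells, and -0.01 and -0.09 after scaling, in the same order.

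**Figure D3:**
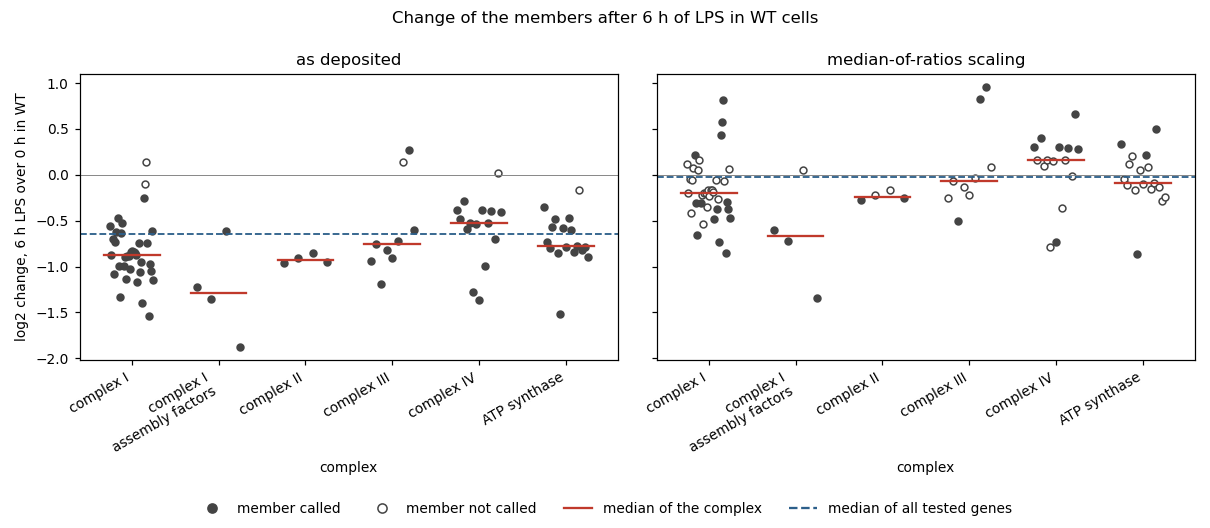
Log2 change of every tested member at 6 h LPS over 0 h in WT cells, by complex, as deposited (left) and after median-of-ratios scaling (right). Points are genes, filled where called, bars are medians of a complex and the dashed line is the median of all genes tested. Complex I assembly factors have the lowest median, -1.28 as deposited, and complex IV the highest, -0.52. The assembly factors include Ndufaf4, which passed the filter only through libraries at or near 0 h.

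**Figure D4:**
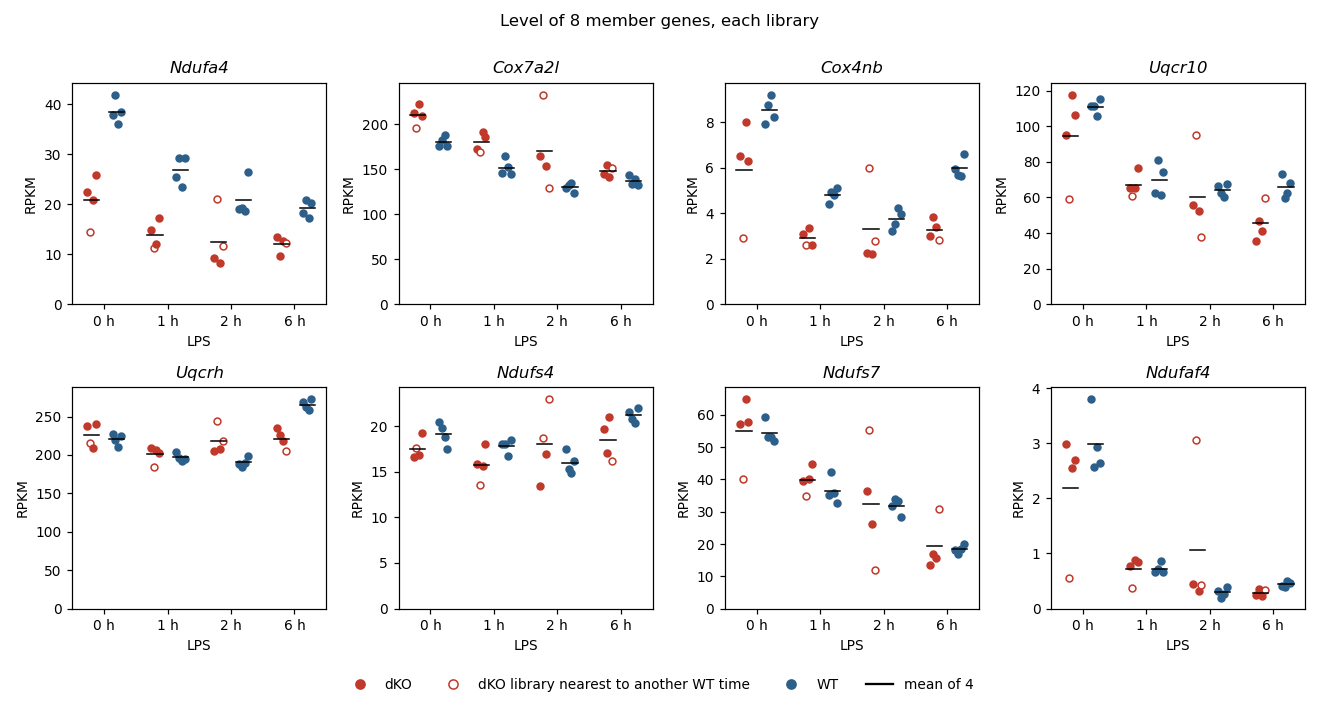
RPKM in every library of 8 members, Ndufa4, Cox7a2l, Cox4nb, Uqcr10, Uqcrh, Ndufs4, Ndufs7 and Ndufaf4, against hours of LPS, with dKO left of WT, bars for means and open points for the dKO libraries that stand apart. Uqcrh at 6 h lies between 259 and 272 RPKM in WT libraries, above all other WT libraries, and Ndufaf4 drops below 1 RPKM at all LPS times in WT libraries.

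Promoter sequence was set beside these changes for the 75 members with an entry in the RefSeq promoter table of GRCm38.p6, 72 found by symbol and 3 by synonym. Each entry spans 250 bases before and 50 bases after a transcript start, and both strands were searched. The bases before the start are shown for Uqcrh, with the highest scaled change in WT cells at 6 h, Ndufaf4, with the lowest, and Ndufa4, which differed between the genotypes. Capitals mark the letters of 1 motif a promoter, ACTTCCGG in Uqcrh, which is CCGGAAGT on the other strand and the site read by ETS factors such as GABPA, and the full palindromic site of the respiratory factor NRF1 in Ndufaf4, where the SP1 letters GGGCGG also occur and are left in lower case. The Uqcrh window is chr4:116075071-116075320 on the minus strand, the Ndufaf4 window chr4:24897833-24898082 on the plus strand, and the Ndufa4 window, which held none of the motifs searched, chr6:11907451-11907700 on the minus strand.
Uqcrh: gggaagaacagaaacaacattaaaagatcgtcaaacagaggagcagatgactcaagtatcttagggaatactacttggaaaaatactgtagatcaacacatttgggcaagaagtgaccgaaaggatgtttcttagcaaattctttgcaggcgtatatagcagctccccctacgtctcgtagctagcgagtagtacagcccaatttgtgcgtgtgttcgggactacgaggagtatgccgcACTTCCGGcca
Ndufaf4: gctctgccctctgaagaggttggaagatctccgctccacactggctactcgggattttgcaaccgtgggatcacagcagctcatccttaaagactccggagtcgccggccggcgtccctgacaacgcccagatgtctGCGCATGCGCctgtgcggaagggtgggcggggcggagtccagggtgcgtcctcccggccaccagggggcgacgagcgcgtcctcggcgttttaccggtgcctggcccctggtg
Ndufa4: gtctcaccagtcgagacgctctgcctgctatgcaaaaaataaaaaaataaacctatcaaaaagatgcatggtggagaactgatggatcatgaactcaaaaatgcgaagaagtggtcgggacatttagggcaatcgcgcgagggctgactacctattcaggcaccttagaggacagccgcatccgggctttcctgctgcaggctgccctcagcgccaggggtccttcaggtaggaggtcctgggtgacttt

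The full NRF1 letters, in capitals in the Ndufaf4 promoter, were found in 6 of the 75 members, or 8.0%, against 0.971% of all 32851 promoter entries. A member was counted once if any of its entries held the letters, so the unit of the 2 shares differs. The shorter NRF1 letters CATGCGC, which lie within them, were found in 15, or 20.0%, against 3.91%. The YY1 letters AAGATGGCG were found in 8, or 10.7%, against 1.40%. The ETS letters CCGGAAGT were found in 5, or 6.67%, against 3.89%, the ERR letters TGACCTTG in 4, or 5.33%, against 1.56%, and the SP1 letters GGGCGG in 34, or 45.3%, against 35.7%. The 8 members with the YY1 letters are Ndufa9, Ndufc1, Ndufs4, Ndufs6, Ndufs7, Atp5j, Atp5j2 and Atp5sl, and they hold both Ndufs4, which rose after scaling, and Ndufs7, which fell on both scales. Windows of 30 bases around the letters, in capitals, are given for these members with opposite courses and for an ATP synthase member. The Ndufs4 window is chr13:114388045-114388074 on the minus strand, the Ndufs7 window chr10:80249463-80249492 on the plus strand, and the Atp5j2 window chr5:145191499-145191528 on the minus strand. The letters start at base 36 in Ndufs4, 25 in Ndufs7 and 24 in Atp5j2 from the transcript start, so they lie after it. A match describes the letters and shows no binding.
Ndufs4: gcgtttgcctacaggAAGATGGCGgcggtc
Ndufs7: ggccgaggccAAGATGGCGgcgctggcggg
Atp5j2: ccaggacttcAAGATGGCGtcactcggtga

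Between the genotypes, few members differed at any time. dKO over WT, 1 of 85 members was called lower at 0 h, 1 at 1 h, 1 at 2 h and 6 at 6 h, and 1 was called higher, at 2 h. Of all genes, 5.91% were called lower and 0.932% higher at 0 h, 9.02% and 1.84% at 1 h, 7.24% and 5.15% at 2 h, and 10.2% and 4.55% at 6 h. At an unadjusted p below 0.05, 10 members were lower and 1 higher at 0 h, beside 16.2% and 2.78% of all genes, 5 and 3 at 1 h, beside 19.0% and 4.19%, 2 and 5 at 2 h, beside 12.5% and 15%, and 13 and 0 at 6 h, beside 19.0% and 7.89%. The members' median log2 difference was -0.16, -0.06, -0.04 and -0.17 at 0, 1, 2 and 6 h, and that of all genes -0.19, -0.18, 0.09 and -0.15.

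The counts between the genotypes depended on the libraries and on the scale. Without the libraries that stand apart, 5 members were lower and 3 higher at 0 h, beside 19.4% and 6.75% of all genes, 5 and 7 at 1 h, beside 29.4% and 9.80%, and 10 and 1 at 2 h, beside 23.8% and 9.29%. At 6 h 49 were lower and 0 higher, beside 33.0% and 13.9% of all genes. After scaling of all libraries, 1 member was lower and 2 higher at 0 h, beside 3.07% and 1.79%, 2 and 4 at 1 h, beside 6.27% and 4.19%, 2 and 1 at 2 h, beside 9.73% and 8.55%, and 2 and 3 at 6 h, beside 8.02% and 8.22%. With both, 2 were lower and 5 higher at 0 h, beside 12.7% and 10.1%, 2 and 24 at 1 h, beside 17.7% and 17.1%, 3 and 10 at 2 h, beside 15.1% and 18%, and 19 and 5 at 6 h, beside 20.2% and 22.6%. In that setting the members higher at 1 h were above the share of all genes, and those lower at 6 h were near it. The other counts in that setting were below it. No test was run against these shares. A change of the difference over time was not tested by these counts.

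Ndufa4, first counted to complex I and now placed at complex IV, was the one member called at every time. At 0 h it had 22.5, 14.5, 20.9 and 25.8 RPKM in dKO cells, against 37.9, 41.8, 36.0 and 38.4 RPKM in WT cells. At 1 h it had 14.9, 11.3, 12 and 17.2 RPKM in dKO cells, against 25.4, 29.3, 23.4 and 29.2 RPKM in WT cells. The genotypes did not overlap at either time. At 2 h it had 9.15, 21.1, 8.25 and 11.6 RPKM in dKO cells, against 19.0, 19.2, 18.6 and 26.3 RPKM in WT cells. The one overlapping dKO value is that of replicate 2, which stands apart. At 6 h it had 13.5, 9.60, 12.7 and 12.2 RPKM in dKO cells, against 18.3, 20.9, 17.3 and 20.3 RPKM in WT cells, again with no overlap.

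The log2 difference of Ndufa4, dKO over WT, was -0.89, -0.94, -0.79 and -0.66 at 0, 1, 2 and 6 h, each with an SE of 0.20 and with limma adjusted p = 0.00450, 0.00186, 0.00851 and 0.0243. After scaling it was -0.68, -0.75, -0.88 and -0.51, and without the libraries that stand apart -0.73, -0.85, -1.20 and -0.67. The call at 6 h ended without WT 6 h replicate 2 or 4 or dKO 6 h replicate 2, and the call at 2 h when the fit held only the 2 h groups. In the annotation of mm9, Ndufa4 spans chr6:11850373-11857446, on another chromosome than the targeted genes. Its near relative Ndufa4l2 was too low to be tested.

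Cox7a2l, counted by its name to complex IV, was called higher in dKO cells at 2 h. At 0 h it had 213, 196, 222 and 210 RPKM in dKO cells, against 176, 183, 188 and 175 RPKM in WT cells, and at 1 h 173, 169, 191 and 186 RPKM in dKO cells, against 145, 165, 153 and 144 RPKM in WT cells. The genotypes did not overlap at these times, and they overlapped at 2 and 6 h. The log2 difference was 0.22, 0.24, 0.35 and 0.11 at 0, 1, 2 and 6 h, of which only 2 h was called (SE 0.11, limma adjusted p = 0.0278). That call ended without WT 2 h replicate 1, 2 or 4 and without dKO 2 h replicate 2, whose 232 RPKM stood above the 129 to 165 RPKM of the other 3. After scaling, the calls were at 0, 1 and 6 h instead, at 0.42, 0.44 and 0.27. Cox7a2l lies on the same chromosome as Psmb8, at chr17:83901257-83913673 in mm9 and 49.6 Mb away.

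Cox4nb, now called Emc8, was called lower in dKO cells at 6 h. It had 3.00, 3.85, 3.40 and 2.84 RPKM in dKO cells at 6 h, against 5.96, 5.69, 5.64 and 6.59 RPKM in WT cells, with no overlap. The difference was -0.78 ± 0.22 (SE, limma adjusted p = 0.0149), and the call ended without WT 6 h replicate 4. The genotypes did not overlap at 1 h either, with 2.60 to 3.34 RPKM in dKO and 4.41 to 5.13 RPKM in WT cells. That difference, at -0.65, was not called as deposited. At 0 h the mean was 5.92 RPKM in dKO and 8.54 RPKM in WT cells, with overlap. Its neighbour Cox4i1, which starts 177 bases away, was at 0.01 ± 0.09 at 6 h (SE, limma adjusted p = 0.95). Cox4nb spans chr8:123177814-123192012 in mm9, on the chromosome that holds Psmb10 and 14.7 Mb from it.

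The other members called lower in dKO cells at 6 h were Uqcrh, Ndufa3, Cox7c and Cox6a1. Uqcrh, at 235, 226, 218 and 204 RPKM in dKO cells, against 269, 262, 259 and 272 RPKM in WT cells, did not overlap and differed by -0.27 ± 0.07 (SE, limma adjusted p = 0.0110), a call that ended when the fit held only the 6 h groups. Ndufa3, a complex I accessory subunit, differed by -0.39, and the complex IV subunits Cox7c and Cox6a1 by -0.41 and -0.31. The Ndufa3 call ended without WT 6 h replicate 3 or 4, the Cox7c call without WT replicate 1, 2 or 4 or dKO replicate 1, 3 or 4 of 6 h, and the Cox6a1 call without any WT replicate or dKO replicate 1, 2 or 3 of 6 h. The count of 6 was 3 without WT 6 h replicate 2 and 1 without WT 6 h replicate 4. After scaling, Ndufa4 and Cox4nb were the members lower at 6 h and Sdha, Ndufs1 and Cox7a2l the members higher, at 0.27, 0.34 and 0.27, while Uqcrh was not called. Cox6a2, the muscle isoform, had the highest scaled differences, of 0.77, 1.05, 0.93 and 0.90 at 0, 1, 2 and 6 h, none of them called, at 4.00, 2.21, 6.59 and 2.05 RPKM in dKO cells and 1.90, 1.52, 2.36 and 2.09 RPKM in WT cells at 0 h.

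**Figure D5:**
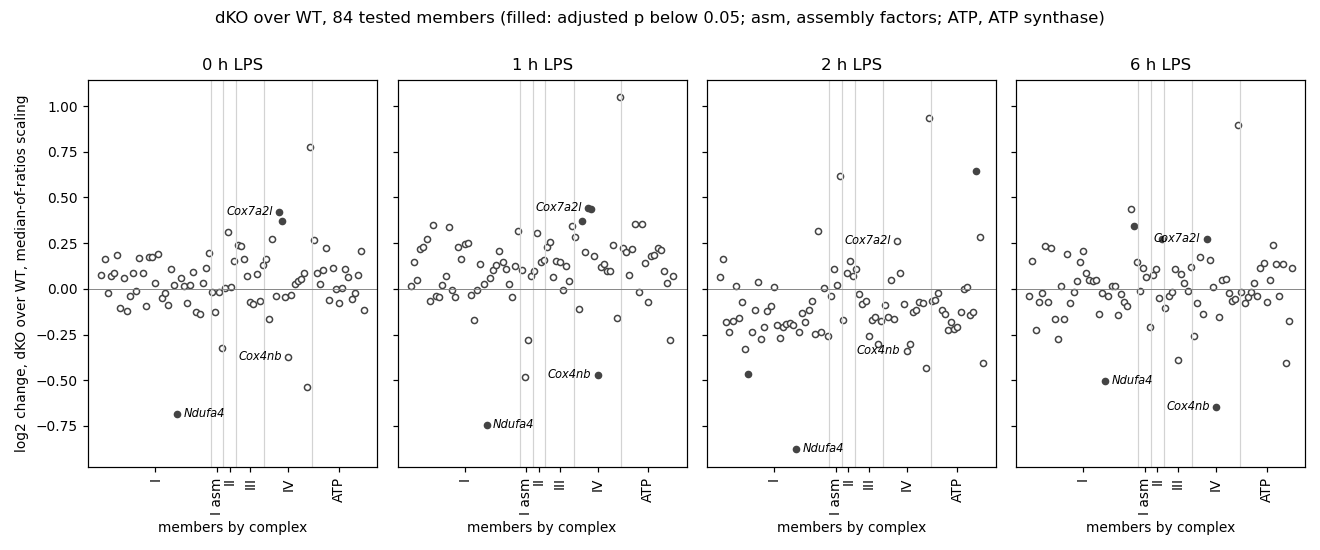
Log2 difference, dKO over WT, of 84 of the 85 tested members after median-of-ratios scaling, by time (panels, 0 to 6 h) and complex (x axis), filled where the adjusted p was below 0.05. Ndufa4 is filled and below 0 in all panels, at -0.68, -0.75, -0.88 and -0.51, and the high open point of complex IV is Cox6a2.

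The response to LPS was also compared between the genotypes as a difference of differences. No member was called at 1, 2 or 6 h by limma, a count of 0 at each time, beside 0.0179% of all genes in each direction at 1 h, 0.170% lower and 0.134% higher at 2 h, and 0.350% lower and 0.574% higher at 6 h. At an unadjusted p below 0.05, 0 members passed at 1 h, 2 at 2 h and 2 at 6 h. For Uqcrh the log2 response at 6 h, dKO minus WT, was -0.30 ± 0.10 (SE, limma adjusted p = 0.215). Without the libraries that stand apart, 19 members were called lower in their 6 h response in dKO than in WT cells, beside 10.5% of all genes, and 10 after scaling as well, beside 7.96%. Uqcrh, at -0.28, and the small complex III subunit Uqcr10, at -0.62, were among the 19. This setting was chosen after the data were seen.

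Other genes of the same metabolism were described from lists. Of 18 citric acid cycle and pyruvate entry genes tested, 16 fell and 0 rose after 6 h of LPS in each genotype, with a median log2 change of -0.85 in dKO and -0.87 in WT cells. Over all genes, 60.2% fell and 14.7% rose in dKO cells and 60.9% fell and 14.9% rose in WT cells, and these shares stand beside the other lists at 6 h as well. Idh2, the mitochondrial NADP-dependent isocitrate dehydrogenase, changed by -2.29 in dKO and -2.67 in WT cells, and fumarase, Fh1, by -1.80 in dKO and -2.17 in WT cells. After scaling, 7 of the 18 were lower and 2 higher in dKO cells and 8 lower and 4 higher in WT cells, beside 33.8% of all genes lower in each genotype and 31.7% higher in dKO and 32.6% higher in WT cells, as for the other lists after scaling.

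Of 25 assembly and insertion factors outside the member list, 17 fell and 3 rose in dKO cells and 18 fell and 4 rose in WT cells at 6 h. After scaling, 12 fell and 8 rose in dKO cells and 9 fell and 7 rose in WT cells. The copper proteins Sco1 and Cox17 rose by 1.68 and 0.93 in dKO cells and by 2.08 and 1.32 in WT cells as deposited. Tmem70, a synthase assembly factor, rose by 0.98 in dKO and 1.47 in WT cells. Tmem70 was also lower in dKO than in WT cells at 6 h, at -1.08 (limma adjusted p = 2.15e-05), as was Cox17, at -0.63. Of 12 regulators of mitochondrial biogenesis, 7 fell and 1 rose in dKO cells and 9 fell and 1 rose in WT cells. After scaling, 5 fell and 3 rose in dKO cells and 5 fell and 1 rose in WT cells. Ppargc1b, a coactivator of respiratory genes, changed by -2.48 in dKO and -2.55 in WT cells. Of 9 carriers and modifiers, 7 fell and 1 rose in dKO cells and 6 fell and 1 rose in WT cells. After scaling, 1 fell and 3 rose in dKO cells and 3 fell and 4 rose in WT cells. Irg1, the enzyme that makes itaconate, an inhibitor of succinate dehydrogenase, rose by 4.67 in dKO and 5.48 in WT cells, and the uncoupling protein Ucp2 changed by -2.37 in dKO and -2.60 in WT cells.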

How the data were processed

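RNA of 32 libraries of dKO and WT dendritic cells was measured by RNA-seq. The authors deposited RPKM per gene, together with a whole-number signal per gene that scales with RPKM times gene length. That signal was read here as bases aligned to the gene. It was used only for depth (1.27 to 1.87 Gb per library) and for the share of the spike-ins. Processing used CASAVA 1.8.2 and the mm9 build, per the submitters' processing notes; aligner settings, annotation and the handling of reads with several matches are not given in the sources used here.

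Genes with at least 1 RPKM in at least 4 libraries were kept (11154 genes, 85 of 92 members), spike-ins left out, and log2(RPKM + 0.5) was fitted with limma 3.58.1 and an intensity trend on 8 group means (R 4.3.3; Python 3.11.15). Benjamini-Hochberg adjustment ran over all genes tested in each of 13 contrasts, with calls below 0.05. RPKM are no counts, so no count model was used. The fit was tested on simulated data. Counting depth limits genes near 1 RPKM most.

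The members and the gene lists were chosen with earlier results of these data known. Named in full are up to 6 called members per direction and comparison by adjusted p, the highest and lowest member of each complex, isoform pairs, the Sdh genes, and members whose level the figures show; other members may be named with their values. 1 member is counted throughout but not reported here by itself. Other pseudocounts, filters, scaling, fits on the groups compared, replicate blocks and left-out libraries were tried. Same-numbered libraries were compared after the group mean of each gene was taken from its log2 values. What remained correlated above 0.1 in 1 of 16 pairs of dKO and WT libraries of one time. Between different times it did so in 5 of 24 pairs within dKO and 16 of 24 within WT (median 0.14). The correlations ran from 0.021 to 0.24 within WT, all above 0. Within dKO, with the libraries that stand apart included, they ran from -0.77 to 0.29. Since not every pair exceeded 0.1, the numbers were not taken as pairs, and fits with a replicate block are given below. Whether the WT numbers mark shared cultures was not tested. Of the 92 members, 6 lie within one annotation entry of Cdkn2d that spans much of a chromosome and 6 others overlap another gene; whether the library kept strand is not stated, so reads shared there cannot be told apart.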

Additional observations from a re-analysis of the deposited data

Results flagged for a closer look

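Dixon's criterion was applied to 192 sets of 4 values, each holding a named member or the summed level in 1 of the 8 groups. In 15 sets a library lay far from the other 3, which chance alone gives in about 1 of 20 independent sets. The sets share the same 32 libraries and are not independent, so the count of 15 is no test. Of the 15, 11 were values of libraries that stand apart.

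In dKO cells at 0 h, replicate 2 was low for the summed level of all members, at 5752 RPKM against 7320 to 7519 in the other 3, for Sdhd, at 73.4 against 118.2 to 126.5, and for Atp5sl, at 5.89 against 11.9 to 12.2. In dKO cells at 2 h, replicate 2 was high for Ndufaf4, at 3.06 against 0.316 to 0.444, and for Sdha, at 77.7 against 39.4 to 45.9. It was also high for Sdhd, at 122 against 54.8 to 62.3, for Cox4nb, at 5.98 against 2.22 to 2.77, and for Atp5sl, at 11.9 against 3.05 to 3.72. In dKO cells at 6 h, replicate 4 was high for Ndufs1, at 13.3 against 9.20 to 9.62, and for Sdhc, at 50.3 against 36.3 to 38.0, and low for Ndufs3, at 20.3 against 31.3 to 32.6.

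The remaining 4 lay in libraries that otherwise follow their group. Cox5a was at 124.8 RPKM in dKO 6 h replicate 2, against 143.8 to 145.0 in the others. Ndufa4 was at 26.3 RPKM in WT 2 h replicate 4, against 18.6 to 19.2, Sdhc at 45.5 RPKM in WT 6 h replicate 4, against 41.3 to 41.5, and Atp5g2 at 7.52 RPKM in WT 0 h replicate 1, against 6.54 to 6.66.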

How the results depend on the processing

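Precision is limited by 4 libraries a group and by 5 dKO libraries closest to another time. Median-of-ratios scaling changed the counts of members called. dKO over WT, they were 3, 6, 3 and 5 at 0, 1, 2 and 6 h, against 1, 1, 2 and 6 as deposited. For 1, 2 and 6 h of LPS over 0 h they were 9, 8 and 28 in dKO and 4, 39 and 33 in WT cells, against 38, 73 and 80 in dKO and 67, 81 and 80 in WT cells. Fits on the groups compared alone gave 2, 8 and 0 for dKO over WT at 0, 1 and 2 h, and 6 and 0 for LPS in dKO cells at 1 and 2 h. Without a filter the dKO over WT count at 2 h was 3. Without the 5 libraries, an alternative added after the data were seen, dKO over WT counts were 8, 12, 11 and 49, the dKO count at 1 h of LPS 76, and the difference of the 6 h response 19. That with scaling gave 7, 26, 13 and 24 for dKO over WT, of which 2, 2, 3 and 19 were lower, 29, 52 and 56 for LPS in dKO cells, 21, 56 and 57 in WT cells, and 10 for the difference at 6 h.

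Leaving out 1 library gave 1 to 2, 1, 1 to 4 and 1 to 8 members for dKO over WT at 0, 1, 2 and 6 h. For 1, 2 and 6 h of LPS it gave 4 to 66, 37 to 76 and 78 to 81 in dKO cells and 45 to 61, 77 to 80 and 77 to 79 in WT cells, and 0 for each difference of responses. At 0 h the count was 2 without dKO 0 h replicate 4. At 2 h it was 1 without WT 2 h replicate 1, 2 or 4, 4 without dKO 2 h replicate 1 or 3, and 3 without dKO 2 h replicate 2.

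With the replicate number as a block, 2 members were called for dKO over WT at 0 h and 19 for 1 h of LPS in dKO cells; the call of Cox6a1 at 6 h and that of Ndufs4 in WT cells at 2 h of LPS were lost.

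Log2 changes with the opposite sign after scaling were, in dKO cells, Ndufa3 0.10 at 1 h, and at 6 h Atp5g2 0.056, Cox4i1 0.21, Cox5a 0.50, Cox7c 0.25, Ndufs3 0.57, Uqcrfs1 0.55 and Uqcrh 0.62. In WT cells they were Atp5a1 0.055 and Cox7a2 0.057 at 1 h, Atp5o 0.14, Ndufs4 0.51, Ndufv2 0.13, Sdha 0.066, Uqcrfs1 0.68 and Uqcrh 0.58 at 2 h, and Atp5g2 0.058, Cox4i1 0.31, Cox5a 0.41 and Ndufs3 0.58 at 6 h. The cause was not tested. Of 105 named changes, all kept direction and call under other pseudocounts, as did the 100 of them still tested with a filter of 5 RPKM.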
